A study of Mus musculus with 10 samples.

Results

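GFP+ CD4+ T cells of Foxp3(gfpko/wt) mice, which transcribe the Foxp3 locus but make no Foxp3 protein from it, were compared with and without IL-2 given to the mice. This comparison takes 2 of the 10 arrays of the study, those labelled as untreated cells (here GFPko) and as cells of IL-2-treated mice (GFPko IL-2), and each was a single array without replicate. All values are log2 expression values as deposited, and differences between arrays are log2 differences, so 1 is a 2-fold difference. With 1 array on each side there is no estimate of error and no test, and every difference below describes these 2 arrays. A gene was counted as different when its values were at least 2-fold apart.

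The gfpko allele places GFP where Foxp3 would be expressed. Foxp3 lies on the X chromosome, so that in heterozygous females each cell uses either the mutant or the wild-type allele. The GFP+ cells therefore developed in mice that still had wild-type cells, normal regulatory T cells among them. Both GFPko arrays came from female mice aged 6 to 8 weeks on a C57BL/6 background after 5 backcrosses from 129/Sv. IL-2 was injected 4 times at 50 ng/g over 24 hours and cells were taken 30 min after the last injection. The labels of treated arrays name IL-2 or a PBS vehicle, and the label of the untreated array mentions no injection. How many mice were pooled is not given in the labels, and cells came from lymph node and spleen together. For comparison, 5 further arrays came from Foxp3(gfp/gfp) females of the same age range, backcrossed 8 to 10 times, which carry a GFP-Foxp3 fusion protein. These were GFP+ cells, which are regulatory T cells with Foxp3 protein (GFPfoxp3), with and without the same IL-2 treatment, GFP- CD25+ cells (CD25pos) with and without it, and untreated GFP- CD25- cells (CD25neg). The remaining 3 arrays, of transduced cells, were not compared here. They were part of the authors' joint normalization. They also counted, with the other arrays, in choosing the measured genes and the probe set of each gene.

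IL-2 binds a receptor made of the alpha chain Il2ra (CD25), the beta chain Il2rb and a common gamma chain, and signals through the kinases Jak1 and Jak3 to the transcription factor STAT5, alongside the PI3K pathway, which holds FOXO factors out of the nucleus. STAT5 induces feedback inhibitors such as Cish and Socs2 and, in regulatory T cells, supports transcription of Foxp3 and Il2ra. Regulatory T cells make little IL-2 of their own and depend on that of other cells for their maintenance.

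The labelled cell type was checked against its marker genes. The CD4 T cell genes Cd4 (10.30 untreated, 10.78 with IL-2), Cd3e (11.89 and 11.98) and Thy1 (12.12 and 12.49) were high on both arrays, and none of the 11 measured genes of the CD4 T cell list differed 2-fold. The Foxp3 transcript read 8.33 in GFPko and 9.39 in GFPko IL-2, against 2.45 in CD25neg, 3.90 in CD25pos and 10.86 in GFPfoxp3. The GFPko cells thus carried signal from the locus on both arrays, below that of cells with Foxp3 protein. Where the probes of that probe set lie relative to the altered part of the allele was not examined.

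Of 11939 genes measured, 348 (2.91%) were at least 2-fold higher after IL-2 in GFPko cells and 239 (2%) at least 2-fold lower, 587 (4.92%) in all. Some had a lower side below its array median, 38 of the higher and 13 of the lower genes. With that side set to the median, 333 stayed at least 2-fold higher and 230 at least 2-fold lower. The same treatment gave 207 higher (1.73%) and 26 lower (0.218%) in GFPfoxp3 cells, and 119 higher (0.997%) and 42 lower (0.352%) in CD25pos cells. The GFPko pair was wider apart over all genes as well, with a 5th to 95th percentile range of -0.69 to 0.83 against -0.38 to 0.53 in GFPfoxp3 and -0.47 to 0.42 in CD25pos. Whether the response itself differs between populations was not tested, since each pair holds 1 array a side. When each array was centred on its median over the measured genes, the split became 270 higher and 312 lower and the median difference moved from -0.01 to -0.11.

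The decreases were less well shared between probe sets than the increases. A second probe set with signal existed for 126 of the 348 higher genes, and it was also at least 2-fold higher for 35 and higher by any amount for 95. For the 239 lower genes 149 had a second probe set with signal, of which 20 were at least 2-fold lower and 100 lower by any amount. When the probe sets of each gene were averaged, 284 genes were higher and 107 lower. Without probe sets whose names mark possible cross-matching, 324 were higher and 142 lower. The balance of 3′ and 5′ signal of control transcripts also differed between arrays. The difference between the 3′ and 5′ beta-actin control probe sets, which grows as transcripts lose their 5′ part, was 3.69 in GFPko and 2.76 in GFPko IL-2. It was 3.80 and 2.86 in the CD25pos pair, and 3.07 and 2.70 in the GFPfoxp3 pair. For Gapdh it was 5.94 and 5.27 in GFPko, 6.43 and 5.24 in CD25pos, and near level in GFPfoxp3 (5.55 and 5.53). RNA quality and the amplification cannot be told apart in these values. The part of this balance in the IL-2 differences was not tested.

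Of the 38 gene lists examined, that of mitosis was the most widely higher. Of 27 measured genes of mitosis 22 were at least 2-fold higher and none lower, with a median difference of 1.76, where 2.91% of all genes were higher and the median of all genes was -0.01. All 27 were higher by some amount. Ccna2, the cyclin A of S phase and mitotic entry, went from 4.95 to 7.78, a 7.13-fold difference. Ccnb2, a B-type mitotic cyclin, went from 3.59 to 6.40, and Cdk1, the kinase that these cyclins activate, from 4.34 to 7.05. The spindle genes Nusap1 (5.46 to 8.21) and Tpx2 (3.89 to 6.64), the ubiquitin-conjugating enzyme Ube2c of mitotic exit (5.57 to 7.96), the kinase Aurkb (4.37 to 6.50) and topoisomerase Top2a (7.61 to 9.72) moved the same way. Of the 22 genes, 12 had a second probe set with signal, which was higher for 7 and at least 2-fold higher for 2.

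Of 27 genes of S phase, 13 were at least 2-fold higher and none lower, with a median of 0.93, where 2.91% of all genes were higher. Tk1, the thymidine kinase of the nucleotide salvage pathway, was 4.50 untreated and 7.21 with IL-2. Rrm2, the regulated subunit of ribonucleotide reductase, was 8.79 and 10.31. The replication helicase gene Mcm3 was 8.74 and 10.08, and the origin-licensing gene Cdc6 was 5.02 and 6.44. Mcm10, another replication factor, was below the array median before IL-2 (2.56) and at 4.74 after it, at least 3.10-fold higher. The lists for S phase and mitosis hold 54 of all 11939 measured genes. They held 35 of the 348 higher genes and none of the 239 lower ones. With so small a share of all genes, their absence from the lower genes is not read as a result.

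The same lists were higher after IL-2 in cells with Foxp3 protein and in CD25pos cells. The mitosis list had 25 of 27 genes at least 2-fold higher with a median of 1.54 in GFPfoxp3, and 25 of 27 with a median of 1.72 in CD25pos. Of all genes 1.73% and 0.997% were higher there. The starting levels were not alike. The median level of the mitosis genes was 4.34 in GFPko, 5.75 in CD25pos and 6.12 in GFPfoxp3, and after IL-2 it was 6.40, 7.39 and 7.59. After IL-2, GFPko cells thus stood near untreated GFPfoxp3 cells in these genes. Of the 27, 23 were at least 2-fold below untreated GFPfoxp3 before IL-2 and 1 after it. Against the GFPfoxp3 array of IL-2-treated mice, 21 were at least 2-fold below after IL-2. Of all genes 5.66%, 5.03% and 5.79% were below in these 3 comparisons. In bulk RNA a larger share of dividing cells and more of these transcripts per cell cannot be told apart.

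**Figure D1:**
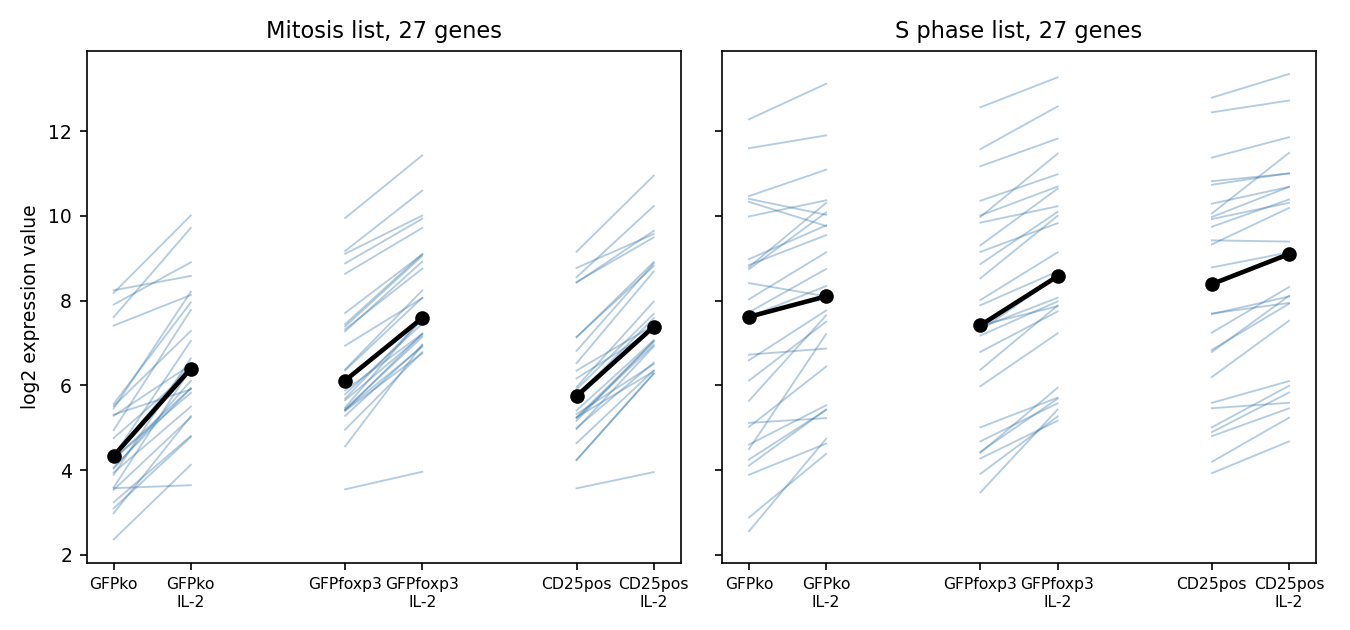
Levels (log2 expression value) of the 27 mitosis genes and the 27 S phase genes on the untreated and IL-2 array of each population, 1 thin line per gene and the median in black. The mitosis median goes from 4.34 to 6.40 in GFPko, from 6.12 to 7.59 in GFPfoxp3 and from 5.75 to 7.39 in CD25pos.

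Promoters of the mitosis genes are known for pairs of elements through which they are held off in resting cells and switched on in dividing cells, the CCAAT box bound by NF-Y and the cell-cycle homology region TTTGAA. Both were searched on both strands in RefSeq windows (GRCm38.p6) from 250 bases before to 50 bases after the gene start. Of 22 mitosis genes with such a window, 18 (81.8%) held CCAAT and 17 (77.3%) held TTTGAA, against 42.9% and 14.9% of 9689 measured genes with a window. The list was assembled from known mitotic genes, and a match is a description of the window only. Below are the 250 bases before the start of 3 of them that were among the most strongly higher, with CCAAT and TTTGAA in capitals on either strand (ATTGG and TTCAAA on the reverse). Ccnb2 lies at chr9:70421555-70421804 on the minus strand, Cdk1 at chr10:69352913-69353162 on the minus strand and Ube2c at chr2:164769679-164769928 on the plus strand. In Ube2c a CCAAT and an ATTGG overlap.
Ccnb2: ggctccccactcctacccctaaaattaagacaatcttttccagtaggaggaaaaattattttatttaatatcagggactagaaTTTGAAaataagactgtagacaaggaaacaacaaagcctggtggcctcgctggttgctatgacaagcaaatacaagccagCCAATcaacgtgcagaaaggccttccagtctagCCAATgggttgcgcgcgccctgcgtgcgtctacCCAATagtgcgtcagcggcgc
Cdk1: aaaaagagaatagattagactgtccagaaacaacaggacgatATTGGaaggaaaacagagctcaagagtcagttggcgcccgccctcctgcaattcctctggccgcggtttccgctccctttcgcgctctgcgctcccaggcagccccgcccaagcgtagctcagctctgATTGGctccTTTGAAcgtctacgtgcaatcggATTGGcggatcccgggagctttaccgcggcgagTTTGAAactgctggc
Ube2c: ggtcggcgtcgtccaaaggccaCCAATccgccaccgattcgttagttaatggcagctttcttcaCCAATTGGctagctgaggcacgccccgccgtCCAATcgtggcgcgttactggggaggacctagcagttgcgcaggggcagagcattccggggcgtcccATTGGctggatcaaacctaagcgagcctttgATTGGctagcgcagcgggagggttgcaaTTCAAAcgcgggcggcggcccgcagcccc
The Ccnb2 stretch holds 3 CCAAT boxes that begin at positions -87, -54 and -21 relative to the start, and the Cdk1 stretch 3 in reverse. TTTGAA stands in capitals once in Ccnb2 and repeatedly in Cdk1, and Ube2c holds it in reverse.

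Genes linked to IL-2 and STAT5 were the second group. Of 24 measured STAT5-induced genes, 10 were at least 2-fold higher and 1 lower, with a median of 0.81. The corresponding counts were 6 higher and 1 lower (median 0.21) in GFPfoxp3 and 2 higher and none lower (median 0.00) in CD25pos. Of all genes 2.91% were higher and 2% lower in GFPko. These shares were 1.73% and 0.218% in GFPfoxp3, and 0.997% and 0.352% in CD25pos. The difference between populations was not tested.

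The feedback inhibitor Cish was 10.07 in GFPko and 11.15 after IL-2, a difference of 1.07. It was nearly the same size in the other populations, 10.37 to 11.43 in GFPfoxp3 (1.06) and 8.50 to 9.56 in CD25pos (1.07). With arrays centred on the measured genes the GFPko value was 0.97, just short of 2-fold. Socs2, a further feedback inhibitor of cytokine receptors, was 10.05 untreated and 11.20 with IL-2, against 9.45 and 10.14 in GFPfoxp3 and 8.62 and 8.27 in CD25pos. Socs1 was below the array median before IL-2 (2.07) and reached 3.91, at least 1.75-fold higher, so that 9 of the 24 were at least 2-fold higher with such lower sides set to the median. In GFPfoxp3 cells it was 2.32 and 3.91, and it stayed at 2.05 in CD25pos cells. The other feedback inhibitor of the list, Socs3, was slightly lower (11.92 and 11.41).

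Among the receptor subunits, Il2ra was 9.58 in GFPko and 11.28 in GFPko IL-2, a 3.25-fold difference, and its second probe set was also higher (6.83 and 8.26). The treated value lay above that of untreated GFPfoxp3 (11.11) and below GFPfoxp3 with IL-2 (11.56). In CD25pos cells, which were sorted on the protein of this gene, it was 7.91 and 7.90. Il2rb was 8.36 and 9.29, short of 2-fold. The kinase and STAT genes differed by less than 0.5: Jak1 0.44, Jak3 0.38, Stat5a 0.09 and Stat5b -0.34. Only Il2ra of the 7 measured receptor and signalling genes passed 2-fold.

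Cytokines and growth genes of the list gave the widest differences. Lta, which encodes lymphotoxin alpha, was 7.59 before and 11.06 after IL-2, an 11.1-fold difference and the second largest increase of all genes. In GFPfoxp3 it was 7.64 and 8.70, and in CD25pos 7.14 and 7.75. Lif, a cytokine of the IL-6 family, was 5.42 and 8.49 (8.41-fold) in GFPko, against 5.00 and 6.40 in GFPfoxp3 and 5.31 and 5.98 in CD25pos. Osm, of the same family, was 7.39 and 8.75, and Myc, the growth transcription factor, 8.50 and 10.60. Myc was 8.76 and 9.61 in GFPfoxp3 and 8.40 and 8.61 in CD25pos. For each of Lta, Lif and Myc the untreated levels of the 3 populations lay within 0.5 of one another, and the GFPko array with IL-2 was the highest of the 6. The single gene of the list that was 2-fold lower was Il10, 7.11 and 5.93, and it was lower in GFPfoxp3 too, 7.14 and 6.08.

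Of 9 measured genes listed here as repressed by IL-2, 2 were at least 2-fold higher (Il4ra and Cxcr5) and 1 lower. Their median was 0.15, with 6 above 0. Whether each member, Il4ra among them, is repressed by IL-2 in such cells was not examined. Cxcr5 was below the array median before IL-2 and at least 1.90-fold higher. With such lower sides set to the median, 1 gene stayed at least 2-fold higher. Of all genes 2.91% were higher and 2% lower. Bcl6, a transcriptional repressor that IL-2 signals are known to lower, was 7.58 untreated and 5.78 with IL-2. It was also lower in GFPfoxp3 (7.36 and 6.51) and in CD25pos (8.31 and 7.16). Il4ra, the IL-4 receptor alpha chain, was 9.27 and 10.70 in GFPko, 9.70 and 9.94 in GFPfoxp3 and 8.91 and 8.98 in CD25pos.

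**Figure D2:**
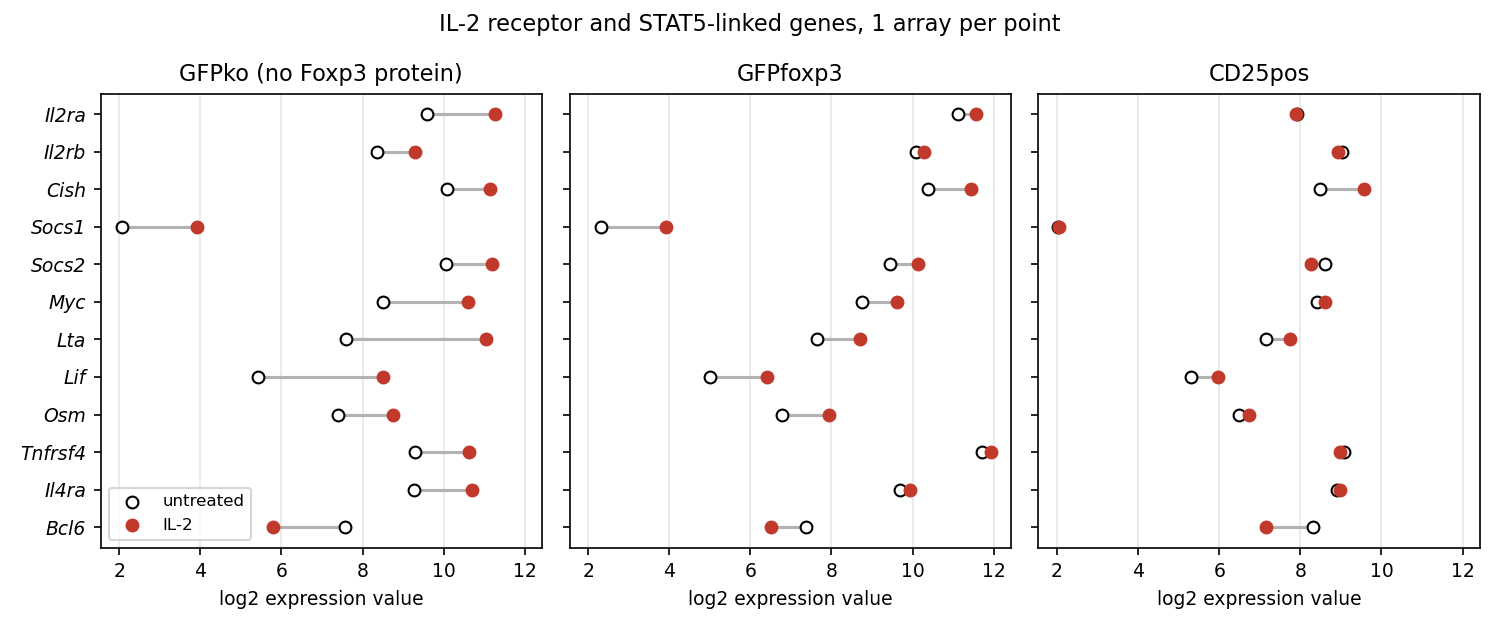
Log2 expression values of 12 IL-2 receptor and STAT5-linked genes, untreated (open) and after IL-2 (red), in GFPko, GFPfoxp3 and CD25pos cells, 1 array per point. Lta moves from 7.59 to 11.06 in GFPko and from 7.64 to 8.70 in GFPfoxp3, while Cish moves by 1.06 to 1.07 in all 3 populations.

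STAT factors bind the palindrome TTCNNNGAA. It stood in the RefSeq window of 5 of 18 matched STAT5-induced genes (27.8%), Cish, Socs3, Tnfrsf9, Lta and Gzmb, and in 8.34% of the 9689 measured genes with a window. The list was drawn up from known STAT5 targets, so this is no independent measure. Socs3 and Tnfrsf9 were lower after IL-2, while the windows of Lif and Il2ra, both at least 2-fold higher, held no match. Shown are the first 30 bases from the annotated start of Cish (chr9:107296659-107296688, plus strand) and the 250 bases before the start of Lta (chr17:35205352-35205601, minus strand), each with 2 matches in capitals.
Cish: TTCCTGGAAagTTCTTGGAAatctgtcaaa
Lta: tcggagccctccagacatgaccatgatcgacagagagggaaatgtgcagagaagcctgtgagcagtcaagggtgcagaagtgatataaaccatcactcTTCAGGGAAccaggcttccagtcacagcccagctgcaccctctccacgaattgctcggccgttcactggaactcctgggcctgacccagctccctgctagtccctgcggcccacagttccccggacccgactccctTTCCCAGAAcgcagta
The 2 genes differ in where the matches lie: those of Cish begin at its first and 12th base, and those of Lta begin at positions -152 and -16 before it. The IL-2 difference of Lta (3.47) was larger than that of Cish (1.07) in GFPko cells, and in GFPfoxp3 cells they were 1.07 and 1.06.

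Of 16 measured targets of FOXO factors, 6 were at least 2-fold lower and none higher, with a median of -0.83, where 2% of all genes were lower. Ddit4, an inhibitor of mTORC1, was 12.23 in GFPko and 9.48 in GFPko IL-2, a 6.71-fold difference, read by 1 probe set. Bcl2l11, which encodes the pro-apoptotic protein Bim, was 11.31 and 9.63, and its other probe sets with signal were lower as well (10.24 and 9.44, 5.01 and 3.79). The PI3K inhibitor Pik3ip1 was 10.46 and 9.32, Tsc22d3 (GILZ, a glucocorticoid-induced gene) 11.37 and 10.14, and Sesn1, a stress-response inhibitor of mTORC1, 11.33 and 10.22. Foxo1 itself was 11.20 and 10.04, with smaller differences in 2 other probe sets (-0.41 and -0.43). A second probe set with signal existed for 5 of these 6 genes and was lower in each, 2-fold for 3. Klf2 and Ccr7, also FOXO targets, were higher by 0.61 and 0.44, and Il7r, the IL-7 receptor, was lower by 0.94.

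The FOXO list had no gene 2-fold lower in the other populations, with medians of -0.23 in GFPfoxp3 and 0.10 in CD25pos. Ddit4 was 11.63 and 10.93 in GFPfoxp3, and 10.67 and 11.84 in CD25pos, where it was higher. A TGTTTAC motif, the FOXO core, stood on either strand in the window of 3 of 14 matched genes (21.4%) against 3.28% of measured genes. The 3 were Txnip, Sesn1 and Bcl2l11, so that 2 of the 6 genes at least 2-fold lower held it, and Ddit4 did not. The list was assembled from known FOXO targets, so this is no independent measure.

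Immediate early genes, which follow recent receptor stimulation and also handling of cells, had 4 of 19 members at least 2-fold lower and none higher, where 2% of all genes were lower, with a median of -0.50 and 16 of 19 below 0. Jun was 9.33 and 7.84, the phosphatase gene Dusp2 11.37 and 10.07, and Egr3 8.56 and 7.31. The fourth was Fosb, 3.83 before and below the array median after (2.80), at least 1.70-fold lower. The list medians were -0.27 in GFPfoxp3 and -0.13 in CD25pos, with no gene past 2-fold in either.

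**Figure D3:**
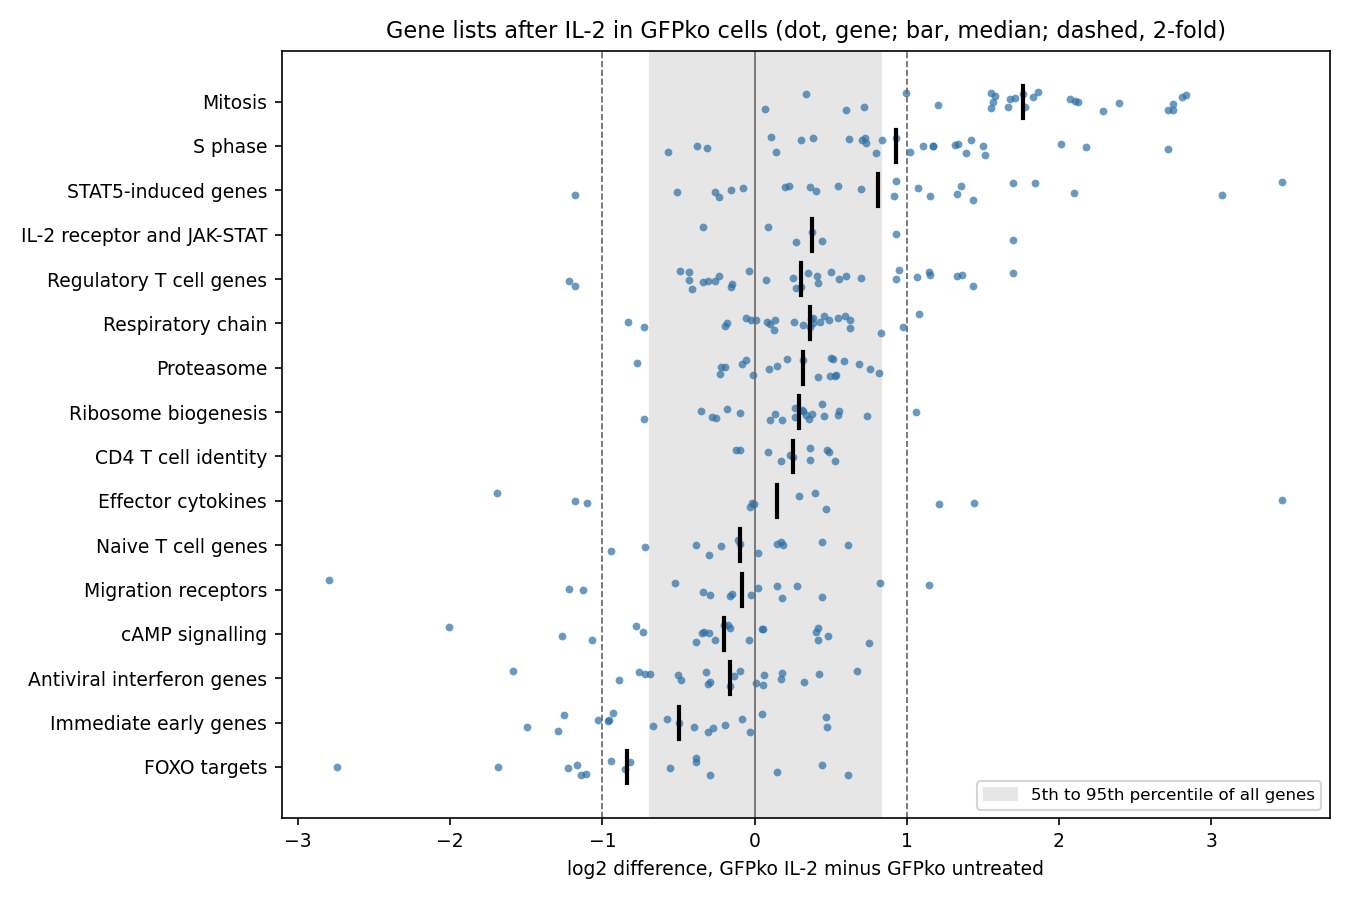
Log2 difference between the GFPko IL-2 and GFPko arrays for each gene (dot) of 16 lists, with the list median (bar), the 2-fold limits (dashed) and the 5th to 95th percentile of all genes (grey, -0.69 to 0.83). Mitosis, S phase and STAT5-induced genes have medians of 1.76, 0.93 and 0.81, and FOXO targets of -0.83.

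Genes known to mark regulatory T cells differed in part. Of 33 measured, 7 were at least 2-fold higher and 2 lower, where 2.91% and 2% of all genes were. Their median was 0.31, and 20 were higher by any amount. A median of this size was also seen for respiratory chain (0.37) and proteasome genes (0.32). Beside Il2ra, the regulatory genes at least 2-fold higher were Gpr83, an orphan receptor, Tnfrsf4 (OX40, a costimulatory receptor), Foxp3, Socs2, Klrg1 and Gzmb. Gpr83 was 10.22 and 11.58, with its second probe set at 9.32 and 10.79, against 11.99 in untreated GFPfoxp3. Tnfrsf4 was 9.30 and 10.63 against 11.72, and Foxp3 8.33 and 9.39 against 10.86. The Foxp3 difference of 1.07 became 0.97 with centred arrays, short of 2-fold. In GFPfoxp3 cells Foxp3 read 10.86 on both arrays, and Gpr83 (11.99 and 11.96) and Tnfrsf4 (11.72 and 11.93) were also near level.

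Several other regulatory genes remained far below the level of cells with Foxp3 protein. Klrg1, an inhibitory receptor of differentiated T cells, was 3.53 and 4.68 against 10.79 in GFPfoxp3. Gzmb, the protease granzyme B, was below the array median before IL-2 (2.85) and at 4.29 after it, at least 2.26-fold higher, against 8.19. Itgae, the CD103 integrin chain, was 7.04 and 6.70 against 11.28, and Itgb8, the integrin chain that activates TGF-beta, 5.57 and 5.08 against 8.70. Ctla4 (12.09 and 12.36 against 13.63) and Ikzf2, the transcription factor Helios (11.26 and 11.52 against 12.43), differed little. The 2 lower genes were Il10 and Gpr15 (4.54 and 3.32), a homing receptor of the large intestine.

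Counted against the untreated GFPfoxp3 array, 28 of the 33 genes were at least 2-fold lower in GFPko and 22 were at least 2-fold lower in GFPko IL-2. Of all genes 5.66% and 5.03% were. The 2 counts share the GFPfoxp3 array and are given side by side only. The genes that were 2-fold below before IL-2 and not after it were Capg, Gpr83, Ikzf2, Il2ra, Il2rb, Izumo1r and Tnfrsf18. Ikzf2 was among them although it differed little. On both arrays 21 were below, and 1 was below only after IL-2. Genes at least 8-fold below numbered 6 before and 7 after. Pde3b, a cAMP phosphodiesterase that is low in cells with Foxp3 protein, was 10.22 in GFPko and 9.92 in GFPko IL-2 against 6.06 in GFPfoxp3, and in CD25pos it was 11.62.

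**Figure D4:**
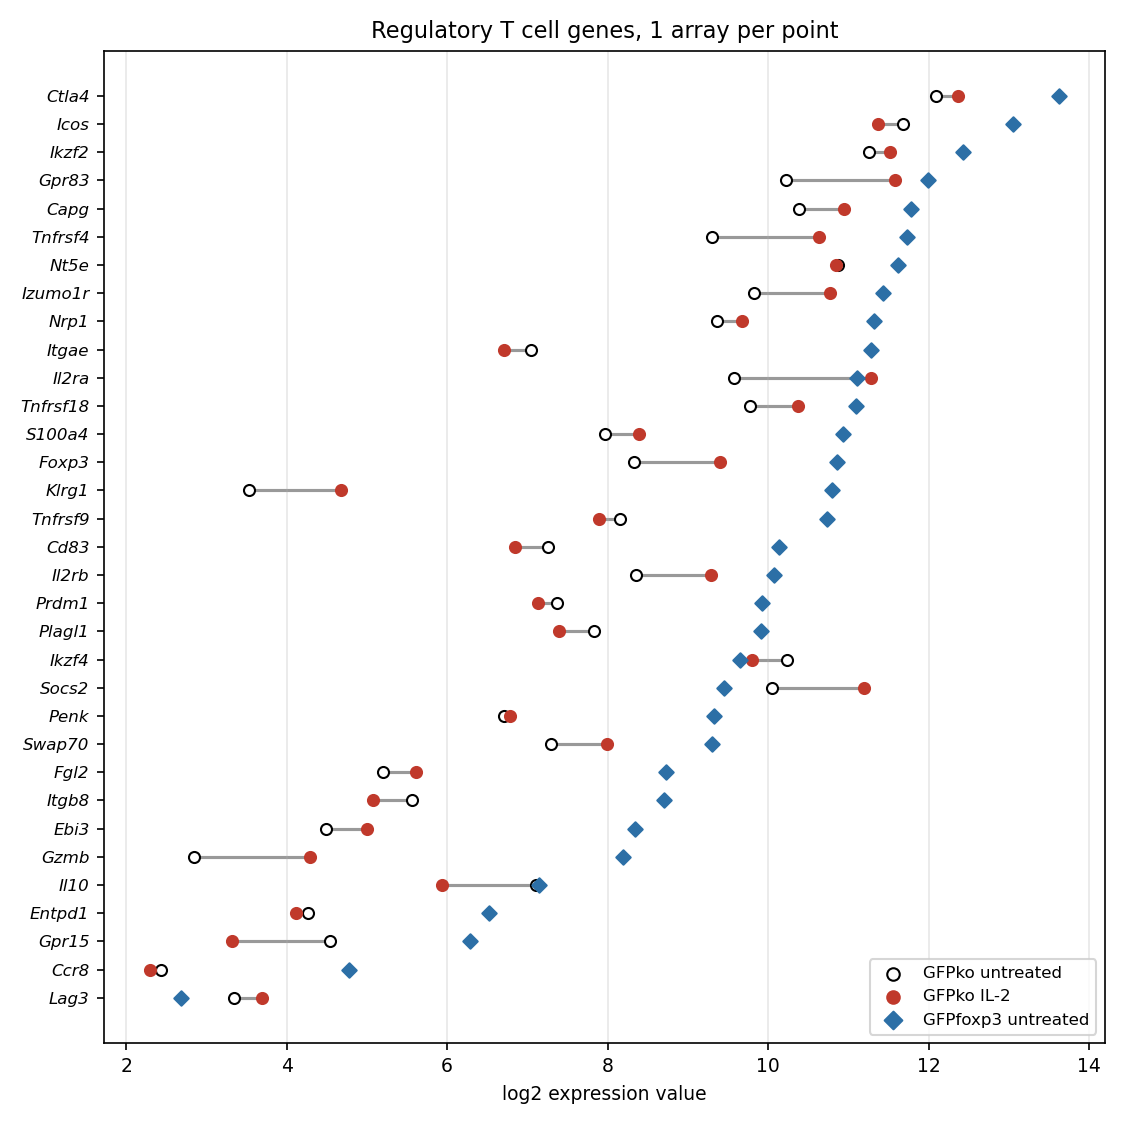
Log2 expression values of 33 regulatory T cell genes in GFPko (open), GFPko IL-2 (red) and untreated GFPfoxp3 (blue diamond), 1 array per point. Il2ra passes the GFPfoxp3 value (11.28 against 11.11), Gpr83 comes near it (11.58 against 11.99), and Klrg1 (4.68 against 10.79) and Itgae (6.70 against 11.28) do not.

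Whether the change over all genes went in the direction of cells with Foxp3 was asked with an axis taken from arrays outside the GFPko pair, GFPfoxp3 minus CD25pos, both untreated. In that direction 518 genes (4.34%) were at least 2-fold higher and 428 (3.58%) at least 2-fold lower in GFPfoxp3. Of the 518, 40 were also at least 2-fold higher after IL-2 in GFPko (7.72%) and 19 were at least 2-fold lower (3.67%). Of the 428, 21 were at least 2-fold lower (4.91%) and 25 at least 2-fold higher (5.84%). Together 61 genes differed along this direction and 44 against it, out of 946. These counts record agreement in sign with the difference between cells with and without Foxp3, and not whether a gene came nearer to the level in GFPfoxp3. Genes of this direction were thus past 2-fold more often than the 2.91% and 2% of all genes on either side, and the excess of genes along it over genes against it came from the genes higher in GFPfoxp3. Across the 11939 genes the correlation between the IL-2 difference and the direction was 0.05, as a description across genes, which are not independent replicates.

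Genes that differed along the direction included Rragd, a Rag GTPase of mTORC1 nutrient sensing (6.73 and 9.12, against 8.14 in GFPfoxp3 and 4.94 in CD25pos). Il10ra, the IL-10 receptor chain, was 5.48 and 7.25, against 7.69 and 5.42. Rgs1, a regulator of chemokine receptor signalling, was 10.59 and 12.48, against 10.52 and 8.82, so that it began near the GFPfoxp3 level and ended above it. Map3k8, a kinase upstream of ERK, was 6.69 and 8.92, against 7.85 and 6.52. On the lower side Plekhf1 was 6.22 and 3.93, against 2.38 in GFPfoxp3 and 5.61 in CD25pos, and Tdrp was 9.45 and 7.67, against 5.86 and 8.66.

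Genes that differed against the direction included Pdlim4, a LIM-domain adaptor and the largest increase of all, at 2.92 and 6.39 (at least 9.75-fold), against 2.89 in GFPfoxp3 and 7.45 in CD25pos. Il4 was 5.04 and 6.48, against 2.32 and 6.90, and both this gene and Pdlim4 ended farther from the GFPfoxp3 level. Others of this group ended nearer to it. The chemokine Ccl5 was 3.47 and 5.90, against 9.82 and 11.79, so that it stood 6.35 below GFPfoxp3 before IL-2 and 3.92 below after it. Jun, higher in GFPfoxp3 (7.91) than in CD25pos (6.37), was 9.33 and 7.84 in GFPko and so ended near the GFPfoxp3 level.

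The balance depended on the arrays that set the direction. With GFPfoxp3 minus CD25neg, 155 genes differed along the direction and 41 against it, of 1306 (10.9% of all genes). Among the genes higher in GFPfoxp3 in that direction, 134 of 873 (7.31% of all genes) differed along it, 30 of them in the S phase and mitosis lists. Without these lists 104 of 837 did, with 30 against it in both counts. The 104 still held genes of cell division outside the lists, such as Spag5, Spc25, Aspm and Ncapg2. The count without the lists therefore does not show a change apart from cell division. Lta was among the genes along this direction, although its 7.59 untreated was already near the 7.64 of GFPfoxp3 and its 11.06 after IL-2 far above it. With the IL-2 arrays, GFPfoxp3 minus CD25pos, 63 differed along it and 26 against, of 854 (7.15% of all genes). Without the S phase and mitosis lists the main count of genes higher in GFPfoxp3 that differed along it was 37 of 515, with 19 against.

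**Figure D5:**
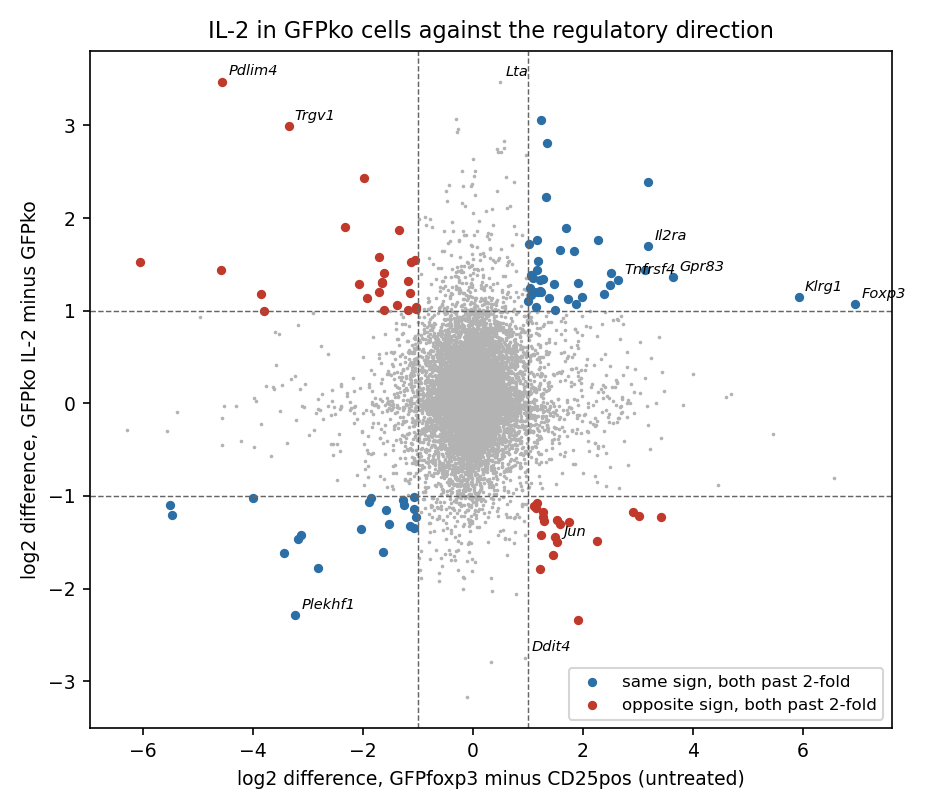
Log2 difference after IL-2 in GFPko cells (y) against the difference of untreated GFPfoxp3 minus CD25pos cells (x), 1 point per gene, with 2-fold limits dashed. The 61 genes past both limits with the same sign are blue and the 44 with opposite signs are red.

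As a plain distance, 946 genes (7.92%) were at least 2-fold apart between GFPfoxp3 and GFPko, 676 higher (5.66%) and 270 lower (2.26%) in GFPfoxp3. After IL-2 it was 930 (7.79%), 600 higher (5.03%) and 330 lower (2.76%). Between the IL-2 arrays of both it was 948 (7.94%), 691 higher (5.79%) and 257 lower (2.15%). The counts share arrays and are not set against each other by any test. The GFPko and GFPfoxp3 mice also differed in the number of backcrosses, 5 against 8 to 10, and genes that follow the strain background cannot be told apart from those that follow Foxp3 in this distance.

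Of the 348 genes higher after IL-2 in GFPko, 119 were also at least 2-fold higher in the GFPfoxp3 pair. This was 34.2% of the GFPko list and 57.5% of the 207, where 1.73% of all genes were higher in that pair. With CD25pos 81 were shared, 23.3% of the 348 and 68.1% of the 119, where 0.997% of all genes were higher in that pair. In all 3 populations 78 were higher, 27 of them in the S phase and mitosis lists, which hold 54 of all 11939 genes. These pairs share no array. Among the lower genes 6 (2.51%) were shared with GFPfoxp3 and 3 (1.26%) with CD25pos. Of all genes only 0.218% and 0.352% were lower in those pairs. None was shared with both, which is not read as a result given such small shares. Across genes the IL-2 differences of GFPko correlated with those of GFPfoxp3 at 0.397 and with those of CD25pos at 0.316, over 11939 genes, as a description.

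Of the genes at least 2-fold in GFPko, 110 higher and 100 lower had a difference under 1.25-fold in both other populations, 31.6% of the higher and 41.8% of the lower genes, where 69.8% of all genes did. Most of the genes had the same sign elsewhere, 83.3% of the higher ones in GFPfoxp3 and 71.6% in CD25pos, where 50.0% and 47.4% of all genes were above 0. Of the lower ones 77.0% had the same sign in each, where 50.0% and 52.6% of all genes were not above 0. Among the lower ones Il17a, the cytokine of Th17 cells, was 8.05 and 6.36 in GFPko, and was at 3.22 and 2.99 in GFPfoxp3 and 3.63 and 3.51 in CD25pos. Il21, made by follicular helper cells, was 7.46 and 6.36 in GFPko, 2.62 and 3.41 in GFPfoxp3 and 8.12 and 7.16 in CD25pos. Tnf was 5.79 before IL-2 and higher by 1.21 after it, against 5.71 and 6.67 in GFPfoxp3. Effector cytokines as a list had 3 of 12 higher (Lta, Il4 and Tnf) and 3 lower (Il17a, Il10 and Il21), where 2.91% and 2% of all genes were.

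Chemokine and homing receptors had 1 of 16 higher and 3 lower, where 2.91% and 2% of all genes were, with a median of -0.08. The higher one was Cxcr5, below the array median before IL-2 (2.89) and at 4.04 after it, at least 1.90-fold higher. Cxcr4, the receptor for the stromal chemokine CXCL12, was 8.67 and 5.88 in GFPko, a 6.93-fold difference and the second largest decrease of all. It was 8.63 and 7.70 in GFPfoxp3 and 8.30 and 8.34 in CD25pos. The gut homing receptor Ccr9 was 8.22 and 7.09. Naive T cell genes (none of 13 past 2-fold, median -0.10) and activation and inhibitory receptors (none of 14, median -0.09) stayed near the median of all genes. Of the 21 measured cAMP genes 3 were lower and none higher, with a median of -0.20. Prkaca, the catalytic subunit of protein kinase A, was 10.07 and 8.06, but its second probe set was only lower by 0.40.

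Some large differences were markers of other cells. Lyz2, the lysozyme of myeloid cells, was 3.36 and 5.71 in GFPko, and 3.28 and 3.55 in GFPfoxp3. The MHC class II genes H2-Eb1 (2.51 and 4.36) and H2-Ab1 (2.92 and 4.73), the iron exporter Slc40a1 of macrophages (2.39 and 4.74) and Cd22, a B cell receptor (2.82 and 4.40), were below the array median before IL-2. Of the 12 measured myeloid markers 1 was at least 2-fold higher, with a list median of 0.35 and a summed linear level of 539 before and 698 after, and 7 of the 12 were higher by any amount. Cybb was 3.82 and 4.81, Mpeg1 2.53 and 3.37, and S100a8 2.69 and 3.47. The other 5 of the 12 were lower by any amount, among them Fcgr3 at 5.48 and 4.52. The defining marker Csf1r (2.32 and 2.74) was below the array medians of 3.11 and 3.06, and Adgre1 was 3.36 and 3.23. Of the 6 measured B cell markers only Cd22 was at least 2-fold higher, where 2.91% of all genes were, and 4 were lower by any amount. Their list median was -0.23 and their summed linear level 1384 before and 987 after. Cd74, the class II invariant chain, was 4.04 and 3.73, and the B cell marker Ms4a1 3.60 and 3.43. Of the 5 measured gamma delta T cell genes 1 was at least 2-fold higher and 1 lower, with a median of 0.03. Of all genes 2.91% and 2% were. Trgv1 was 5.11 and 8.10, and Trgv4 8.48 and 9.25, with a second probe set near level (7.64 and 7.73). Cd163l1 was 5.26 and 3.80, with the opposite direction in its second probe set (3.05 and 3.64). The gene 5830411N06Rik was 6.70 and 6.41, and Zbtb16 was below the array median on both arrays (2.56 and 2.59). How much such cells contributed to the other differences was not tested.

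Ifi202b, an interferon-inducible gene that varies between mouse strains, was 6.09 in GFPko and 2.92 in GFPko IL-2, the largest decrease of all, and was at 2.74 to 2.87 on the 5 arrays of Foxp3(gfp/gfp) mice. The antiviral interferon genes as a list had 1 of 21 lower, Rsad2 (9.96 and 8.37), and none higher, with a median of -0.16. Of all genes 2% were lower and 2.91% higher, so these counts lie near those shares. The strain background of the individual mice was not examined.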

How the data were processed

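RNA of flow-sorted cells was hybridised to Affymetrix mouse arrays after 2 rounds of amplification, which favours the 3′ ends of transcripts, per the labels' protocols. The authors deposited log2 values for 45101 probe sets and normalized the 10 arrays as 1 set, per the series' design text. How background was corrected and probes were summarised, and with which software, was not given in the sources used here. The log2 scale was read from the range of the values.

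Probe sets with 1 gene (34958, with 932 naming several and 9211 none) were named from the platform annotation, 34754 of them updated by Entrez ID to GRCm38.p6 symbols. Of 18194 genes, 11939 had a probe set at or above the array median on at least 1 of the 10 arrays. The brightest such probe set by mean level over the 10 arrays stood for the gene. Quantile normalization, used as an alternative, also took all 10 arrays. A fold with the lower side under its array median is given as at least the higher value over that median. Named genes were the 12 largest increases and decreases, up to 5 members of each of 38 lists by size, Foxp3, Il2ra, Cish and Pde3b. Genes named outside this rule, such as those of the direction counts, H2-Eb1, H2-Ab1 and Slc40a1, were chosen after their values were seen. The genes and lists were chosen with earlier results of these data known. Genes, lists and counts were recomputed under the alternatives given in the closing section. Python 3.11.15, pandas 2.3.3, numpy 2.4.6 and matplotlib 3.10.9 were used, and the counting was tested on simulated data.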

Additional observations from a re-analysis of the deposited data

Results flagged for a closer look

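A few genes had measured values at least 2-fold apart in opposite directions after IL-2 in GFPko cells and in another population. None of these differences between populations was tested, since each rests on 1 array a side. Ddit4, the mTORC1 inhibitor, was lower in GFPko (-2.75) and higher in CD25pos (1.16). Foxp3 was higher in GFPko (1.07) and lower in CD25pos (-1.06). There it was 3.90 and 2.85, the latter below the array median of 3.06, so that against this median it was at least 1.79-fold lower, and with centred arrays the GFPko difference was 0.97. Tbrg3 differed by -1.43 in GFPko and 1.10 in CD25pos. Against GFPfoxp3, 1810044D09Rik differed by 1.21 in GFPko and -1.03 in GFPfoxp3, and Calml3 by -1.12 and 1.11.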

How the results depend on the processing

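Counts of higher and lower genes, of genes along and against the GFPfoxp3 direction, and of genes apart from GFPfoxp3 stayed within 1.5 times of the reported ones under quantile normalization, centring, and the 3 other filters on dim genes. The lower count was 107 with the mean of all probe sets and 142 without cross-matching probe sets, against 239, while the higher count stayed within 1.5 times. At 3-fold, 87 genes were higher and 40 lower, 9 differed along the direction and 5 against it, and 350, 359 and 352 genes were apart from GFPfoxp3 (untreated pair, GFPko IL-2 against untreated GFPfoxp3, and the IL-2 pair). The count along it became 155 with the CD25neg direction, and that against it 26 with the IL-2 direction. Where a second probe set also had to pass 2-fold, 35 genes were higher and 20 lower. This, the alternatives for the gap counts and leaving out the S phase and mitosis lists were chosen after seeing the data. Of 75 named genes past 2-fold, 53 stayed so wherever measured. Pstpip2 (-0.064) and Cdc45 (-0.018) reversed when both GFPko arrays had to reach their medians, and Lasp1 (0.41) and Cd163l1 (0.60) without cross-matching probe sets, since another probe set was then read. The S phase median was 1.14 without cross-matching probe sets. No paired analysis was possible because each group holds 1 array. Single arrays, dim signals and probe sets that disagree limit every value.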

Other observations

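Other housekeeping groups differed little in GFPko cells. Respiratory chain genes had 1 of 27 at least 2-fold higher and none lower, with a median of 0.37, proteasome genes none of 21 with a median of 0.32, ribosome biogenesis genes 1 of 22 with 0.29, and glycolysis genes none of 13 with 0.15. The same medians in GFPfoxp3 were 0.06, 0.06, -0.11 and -0.03.

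Single genes of stress and signalling pathways stood out from their lists. Trib3, a pseudokinase induced by ATF4, was 3.83 untreated and 6.08 with IL-2 in GFPko, 3.87 and 6.09 in GFPfoxp3, and 3.82 and 4.78 in CD25pos. The endoplasmic reticulum chaperone Pdia4 was 5.83 and 7.33. Xbp1, a transcription factor of the unfolded protein response, was 10.77 and 11.69, with wider differences in its other probe sets (2.10, 1.84 and 1.07). The feedback inhibitors of ERK signalling Spry1 (8.06 and 9.70) and Dusp6 (9.13 and 10.42) were higher. Cblb, a ubiquitin ligase that restrains T cell activation, was 9.34 and 8.32, with smaller differences in its other probe sets (-0.41 and -0.20). The interferon-inducible GTPases had none of 9 past 2-fold.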
